A study of Rattus norvegicus with 6 samples.

Results

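Cholesterol synthesis, transport and efflux were followed through 29 genes in mesenchymal stem cells held in a soft or a stiff gel. The genes were taken from the deposited table by name, 29 of 33589 rows, and no name was repeated in it. By role they comprised 18 enzymes of the pathway from acetyl-CoA to cholesterol, 5 genes that regulate it, 3 that move sterol inside the cell, and 3 for efflux and storage. PolyA RNA was sequenced from mesenchymal stem cells (MSCs) of rat bone marrow, a stromal population able to give rise to bone, fat and cartilage. The soft group (3 libraries) was kept in an SA hydrogel of 2 kPa and the stiff group (3 libraries) in one of 18 kPa, each for 48 h, in low glucose medium with fetal bovine serum, penicillin and streptomycin that both groups shared. The labels do not spell out SA, and the sources used here give no strain, sex or age of the animals. The design text speaks of quadruplicate sequencing, while 3 libraries per gel were analysed here. Nothing in the sources says that replicates were separate cultures or animals, so a p-value reflects no more than the spread among these 6 samples, which may be technical.

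Mammalian cells make cholesterol from acetyl-CoA through mevalonate, isoprenoid diphosphates, squalene and lanosterol, in a series of steps carried out by enzymes. When membranes of the endoplasmic reticulum are low in sterol, the escort protein SCAP carries the SREBP transcription factors to the Golgi, where they are cut and released to switch on these enzymes together; when sterol is plentiful, INSIG proteins hold SCAP back. Cholesterol taken up with lipoproteins leaves the lysosome through NPC2 and NPC1, surplus is esterified by SOAT1, and oxysterols activate the LXR receptors, which switch on the exporters ABCA1 and ABCG1.

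None of the 29 genes passed the test between stiff and soft gel, and all 29 were abundant enough to be tested. Most enzymes had fold changes above 0 and most of the remaining members below it. This split was formed with results of these data known and was not tested. Of the 18 enzymes, 13 had a log2 fold change above 0, with a median of 0.12, and of the 11 regulators, transporters and storage genes 10 lay below 0, with a median of -0.10. Among the enzymes the sterol demethylases Cyp51 (44.1 ± 1.10 in soft and 52.1 ± 0.880 FPKM in stiff gel; SD, n = 3 per group) and Msmo1 (42.7 ± 4.10 and 51.9 ± 3.36 FPKM) stood farthest above 0, and the efflux pump Abca1 (23.6 ± 0.527 and 18.5 ± 1.47 FPKM) stood farthest below 0 of all members. FPKM counts fragments per kilobase of gene relative to the size of the library, as the authors scaled it.

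With limma on log2(FPKM + 1), which understates the change of low genes, 0 of 29 members had a Benjamini-Hochberg adjusted p under 0.05, against 1.43% of all 12713 tested genes (1.01% higher and 0.425% lower in stiff gel). At an unadjusted p under 0.05 there were 5 members with higher and 3 with lower means in stiff gel, where all genes gave 8.46% and 6.95%. With voom on reads recovered from the FPKM, 1 member, Abca1, passed, beside 190 genes higher and 127 lower of all 12713 tested. The median over the 29 was -0.00 and the mean 0.02, beside a median of 0.00 over all tested genes, of which 50.4% lay above 0. On the scale of FPKM + 1 the 95% intervals of the 29 reached no higher than 1.39 times the soft value (Msmo1). On that scale they reached no lower than 0.706 times it (Abca1). In plain FPKM the limits of low members lie farther out. The groups of libraries did not overlap for 8 members higher in stiff gel, where the background was 11.7% of tested genes, and for 5 members lower in stiff gel, where it was 10.9% (22.6% in both directions). All 8 were enzymes; the 5 were Lss, Insig1, Npc1, Npc2 and Abca1.

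**Figure D1:**
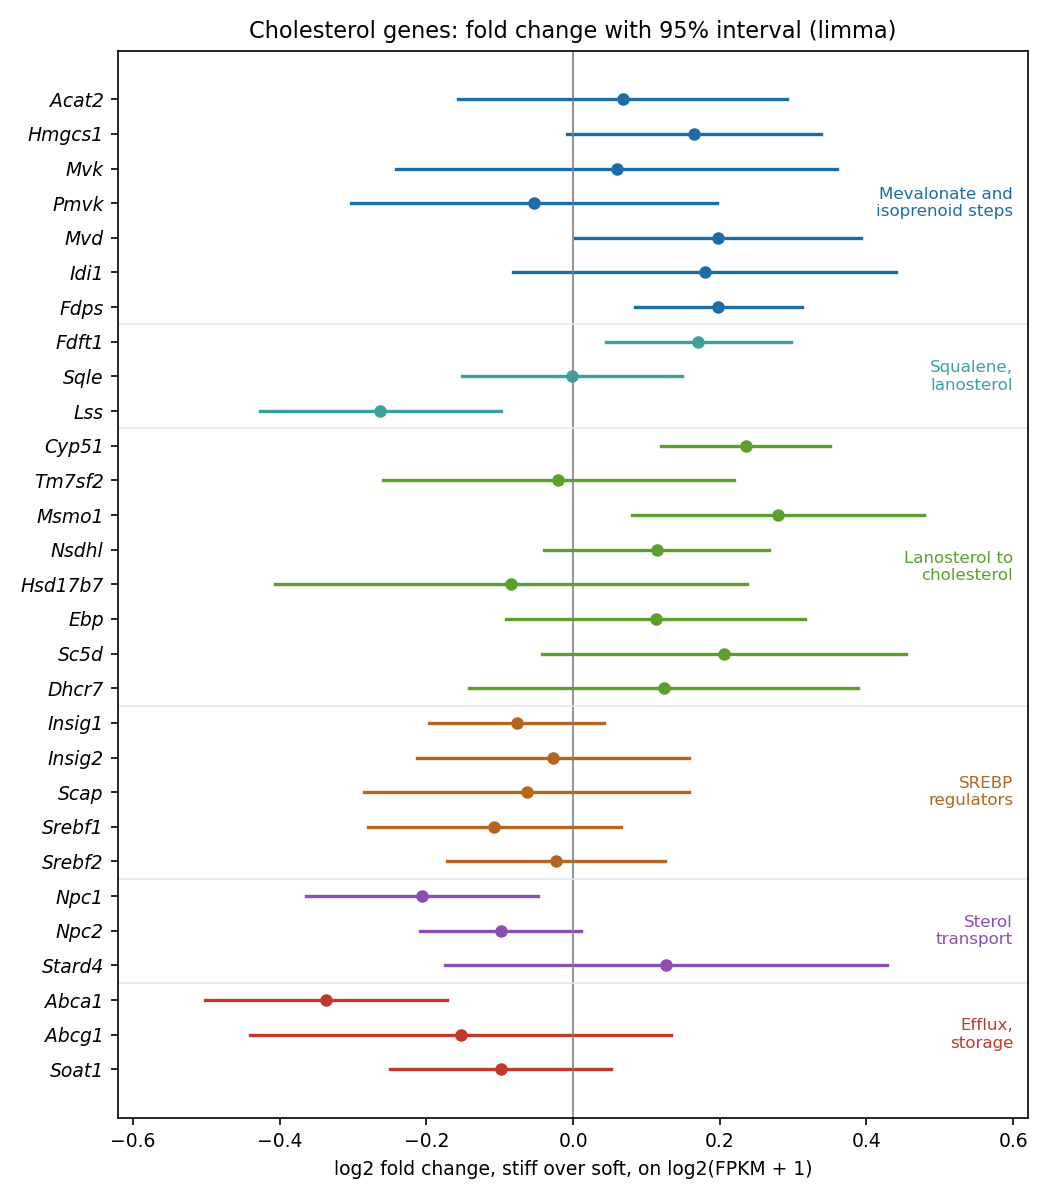
Log2 fold change of stiff over soft gel on log2(FPKM + 1) for 29 genes (rows, coloured by role), with points for the limma estimate and lines for its 95% interval (n = 3 libraries per group). Of the 18 enzymes in the upper part 13 points lie above 0, and of the 11 genes in the lower part 10 lie below 0.

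The counts on each side were the same under other scalings. At equal FPKM sums, after quantile normalization and with median-ratio scaling, 13 of 18 enzymes lay above 0 and 10 of 11 other members below it. The enzymes' median was 0.07, 0.12 and 0.12 in these settings, and that of the others -0.15, -0.12 and -0.10. Without any 1 library between 12 and 16 enzymes lay above 0, with medians from 0.08 to 0.15. Of the other 11 members between 8 and 10 then lay below 0, with 8 without soft replicate 1 and 9 without stiff replicate 2 or stiff replicate 3. It was 8 of 11 with array weights and 9 of 11 with the length trend removed. Both subsets were formed with results of these data known, and no test was made of the difference between them. The summed FPKM of the 18 enzymes was 396.9, 410.3 and 408.6 in the soft libraries, in order of replicate. It was 436.9, 451.2 and 451.8 in the stiff ones, without overlap. The FPKM totals of whole libraries did not overlap either, at 452787 to 457306 in soft and 467372 to 478304 in stiff gel. The sum over the other 11 genes, most of it Npc2, was 681.0, 647.8 and 651.9 in soft and 618.7, 609.9 and 619.9 in stiff gel.

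Libraries held between 14966354 and 16711527 recovered reads. Soft replicate 1 stood apart with a mitochondrial share of 2.15%, where the other 5 libraries had 2.85% to 3.33%. The stromal markers Thy1, Nt5e, Pdgfra and Col1a1 were expressed, with means over the 6 libraries from 15.3 (Nt5e) to 3320.4 FPKM (Col1a1). Endothelial markers (5 of 6 listed genes found) summed to between 0.416 and 0.738 FPKM per library, and erythroid ones (4 of 6) to between 0.498 and 0.957, with 2 genes listed at 0 throughout. Neural markers (6 of 6, with 2 tested and 0 called) summed to between 7.75 and 9.15 FPKM in soft gel. Their sums in stiff gel were between 9.22 and 9.78 FPKM. Leukocyte and macrophage markers were present: 14 of 15 listed genes were in the table, none at 0 in every library, and they summed to between 379.2 and 388.1 FPKM in soft and between 329.8 and 356.6 FPKM in stiff gel. Of the 10 above the level filter 8 lay below 0. By limma 2 were called lower (Cd68 and Cd53) and 1 higher (Adgre1) in stiff gel. Of all tested genes 0.425% were called lower and 1.01% higher. In such bulk samples fewer cells of a type and less RNA per cell cannot be told apart.

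The 29 genes spanned levels from 3.03 FPKM for Abcg1 to 371.7 FPKM for Npc2, as means over the 6 libraries. Npc2, the soluble lysosomal sterol carrier, sat at percentile 98.7 of all tested genes and Abcg1 at percentile 18.8. Hmgcs1, which makes the precursor HMG-CoA, followed at 80.4 FPKM, then Insig1 at 58.3, Cyp51 at 48.1, Fdps at 48.0 and Msmo1 at 47.3 FPKM. Cyp51, Fdps and Msmo1, next to each other in that order, did not differ beyond their spread. At the low end stood the ketosteroid reductase gene Hsd17b7 (4.77 FPKM), the sterol carrier gene Stard4 (3.78 FPKM) and Abcg1. Reads per library ran from 131 for Stard4 to 8388 for Npc2. For Stard4 counting error alone gave a standard error of 0.0921 for the log2 fold change, against 0.128 in the fit, so depth limits what can be seen there; for Npc2 these were 0.0136 and 0.0467. The coefficient of variation within groups had a median of 6.54% over the members and 8.48% over all tested genes, and ran from 1.92% (Fdps) to 15.4% (Hsd17b7).

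**Figure D2:**
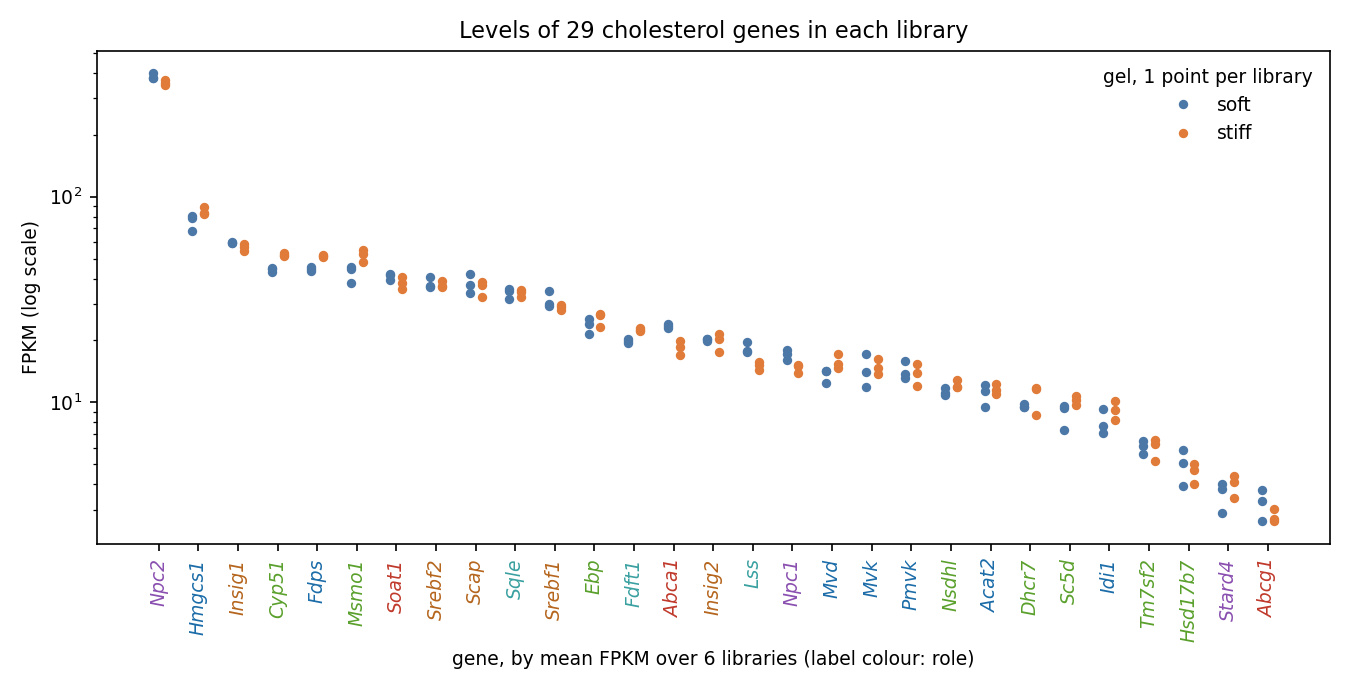
FPKM on a log scale for 29 genes (x axis, ordered by mean), with 1 point per library (blue soft, orange stiff; 3 each); label colours give the role as in the plot of fold changes. Npc2 stands above all others near 371.7 FPKM and Abcg1 is lowest at 3.03 FPKM.

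Promoters of 24 members were found in the RefSeq table (GRCr8), each with 250 bases before and 50 after a start site; Abcg1, Fdft1, Pmvk, Sqle and Stard4 had no entry. They were searched on both strands for TCACNCCAC, a form of the sterol element that SREBP binds, CCAAT, the box bound by NF-Y, a usual partner of SREBP, and CACGTG, the E-box; no marked motifs overlap in the sequences shown. CCAAT was held by 12 of 15 enzyme promoters (80.0%), by 7 of 10 promoters of the other members (70.0%) and by 37.5% of all 33469 promoters in the table. More than 1 box was held by 10 of the 15 and 2 of the 10, against 11.2% of all promoters and 13.6% of those of tested genes. TCACNCCAC was in none of the members' 25 promoters (Srebf1 has a pair) and in 1.12% of all; CACGTG was in those of Abca1, Insig1, Sc5d and Scap, and in 6.42% of all. A match is a description of letters, not a site. Of the 4 promoters shown, 2 are of enzymes with higher values in stiff gel and several CCAAT boxes (Msmo1 and Fdps). The others are of Lss, the only enzyme gene whose stiff libraries all lay below the soft ones, and of the exporter Abca1. Capitals mark a CCAAT box, read as ATTGG where it lies on the other strand, or in Abca1 the E-box. Among those not shown, the Cyp51 promoter held 0 boxes and that of Hsd17b7, which lay below 0, held 3. Msmo1 lies at chr16:29746863-29747162 on the plus strand, Fdps at chr2:176804767-176805066, Lss at chr20:12118181-12118480 and Abca1 at chr5:72596424-72596723, the last 3 on the minus strand and all written 5′ to 3′ of the gene.
Msmo1: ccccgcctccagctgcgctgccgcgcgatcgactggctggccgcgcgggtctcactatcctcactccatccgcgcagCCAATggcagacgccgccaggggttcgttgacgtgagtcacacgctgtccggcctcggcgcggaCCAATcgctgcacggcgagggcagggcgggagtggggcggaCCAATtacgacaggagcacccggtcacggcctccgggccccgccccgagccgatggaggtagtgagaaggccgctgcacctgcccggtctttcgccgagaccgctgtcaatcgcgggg
Fdps: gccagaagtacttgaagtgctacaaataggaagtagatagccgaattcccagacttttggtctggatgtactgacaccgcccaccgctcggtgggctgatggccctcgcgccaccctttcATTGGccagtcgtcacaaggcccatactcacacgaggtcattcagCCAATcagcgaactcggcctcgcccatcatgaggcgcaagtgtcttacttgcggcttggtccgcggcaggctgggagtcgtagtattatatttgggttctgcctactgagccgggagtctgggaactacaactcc
Lss: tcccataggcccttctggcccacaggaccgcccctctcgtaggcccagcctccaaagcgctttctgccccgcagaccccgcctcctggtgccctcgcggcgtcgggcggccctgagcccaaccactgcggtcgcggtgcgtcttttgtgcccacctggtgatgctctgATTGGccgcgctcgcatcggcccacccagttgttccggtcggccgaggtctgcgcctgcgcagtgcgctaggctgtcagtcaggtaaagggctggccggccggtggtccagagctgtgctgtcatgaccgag
Abca1: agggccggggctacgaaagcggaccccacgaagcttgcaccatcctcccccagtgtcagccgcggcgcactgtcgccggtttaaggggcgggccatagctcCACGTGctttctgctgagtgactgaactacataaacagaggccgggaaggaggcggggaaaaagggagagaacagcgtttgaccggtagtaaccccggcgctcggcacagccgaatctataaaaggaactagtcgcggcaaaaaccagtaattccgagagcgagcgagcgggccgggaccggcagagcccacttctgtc

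The 7 genes of the mevalonate and isoprenoid steps had 6 fold changes above 0, a median of 0.17 and no call. Fdps, which makes farnesyl diphosphate, was at 45.7, 43.5 and 44.7 FPKM in the soft libraries (replicates 1, 2 and 3) and at 50.7, 51.5 and 52.0 in the stiff libraries. Every stiff library lay above every soft one, with a gap several times the spread inside a group. The ratio of means was 1.15 (log2 fold change 0.20, SE 0.0486, 95% interval 0.08 to 0.31, adjusted p = 0.117). A small nuclear RNA gene of 107 bases lies inside the Fdps interval on the same strand, and no source used here says how shared reads were assigned.

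Hmgcs1 was at 68.4, 80.6 and 78.6 FPKM in soft and 82.9, 89.4 and 82.7 FPKM in stiff gel. The groups did not overlap, and soft replicate 1 lay well below the others; without it the log2 fold change was 0.09, with it 0.17 (adjusted p = 0.347). Mvd, the decarboxylase that yields isopentenyl diphosphate, was at 14.2, 14.2 and 12.5 in soft and 14.7, 15.4 and 17.2 FPKM in stiff gel, again without overlap (log2 fold change 0.20, adjusted p = 0.318). Idi1, which isomerizes that product, had means of 8.02 ± 1.11 and 9.20 ± 0.965 FPKM, and its libraries overlapped. Idi1 shares 100 bases with Wdr37 (mean 4.12 FPKM) on the opposite strand. The kinases Mvk and Pmvk and the thiolase gene Acat2, which starts the route, had ratios of means of 1.04, 0.963 and 1.05. Their libraries were mixed between the groups, and Mvk ranged from 11.8 to 17.1 FPKM within soft gel alone.

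The next steps lead from farnesyl diphosphate to lanosterol, and their genes were not all on one side. Fdft1, the squalene synthase gene, was at 19.9, 20.4 and 19.5 FPKM in soft and 22.1, 22.5 and 23.1 FPKM in stiff gel. The groups were tight and apart (ratio 1.13, log2 fold change 0.17, SE 0.0536, adjusted p = 0.201). Sqle, the squalene epoxidase gene, was at 34.1 ± 1.93 and 34.0 ± 1.46 FPKM, with an interval of the log2 fold change from -0.15 to 0.15. Lss, the lanosterol synthase gene, was at 19.7, 17.6 and 17.7 FPKM in soft and 15.8, 14.3 and 15.2 FPKM in stiff gel. It was the only enzyme gene whose stiff libraries all lay below the soft ones (ratio 0.824, log2 fold change -0.26, SE 0.0702, 95% interval -0.43 to -0.10, adjusted p = 0.142).

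Cyp51 encodes the demethylase that acts next on lanosterol. It was at 42.9, 45.1 and 44.3 FPKM in soft and 52.1, 53.0 and 51.3 FPKM in stiff gel. The groups were far apart relative to their spread, with a ratio of 1.18 (log2 fold change 0.24, SE 0.0490, 95% interval 0.12 to 0.35, adjusted p = 0.0789). Over 20 alternatives its adjusted p ran from 0.0198, with array weights, to 0.249. Within each library the FPKM of Cyp51 over that of Lss was 2.18, 2.56 and 2.50 in soft and 3.30, 3.71 and 3.36 in stiff gel. That ratio does not depend on library scaling; it was chosen after the values were seen and has no test.

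Msmo1, the methylsterol oxidase gene, was at 38.0, 44.5 and 45.5 FPKM in soft and 48.2, 54.8 and 52.6 FPKM in stiff gel. It had the largest ratio among the members, 1.22, and a wide spread in both groups (log2 fold change 0.28, SE 0.0848, 95% interval 0.08 to 0.48, adjusted p = 0.190). Without soft replicate 1, its lowest library, the log2 fold change of Msmo1 was 0.20, below that of Mvd (0.23). Sc5d, the lathosterol desaturase gene, was at 7.33, 9.64 and 9.43 in soft and 10.8, 10.3 and 9.71 FPKM in stiff gel. Nsdhl, the sterol dehydrogenase that works with Msmo1, was at 11.1, 10.9 and 11.7 in soft and 11.9, 11.9 and 12.9 FPKM in stiff gel. Neither pair of groups overlapped, though the gap was small beside the spread (adjusted p = 0.411 for Sc5d and 0.462 for Nsdhl). The log2 fold change of Sc5d was 0.21, and 0.09 without soft replicate 1. The other 4 genes of this stretch overlapped between gels. Ebp, the sterol isomerase gene, and Dhcr7, whose product completes cholesterol, had ratios of 1.08 and 1.11, and the reductase genes Tm7sf2 and Hsd17b7 0.987 and 0.925. Tm7sf2 shares 1066 bases with Vps51 on the same strand, so its value is uncertain. Hsd17b7 shares 19943 bases with LOC100366054 (mean 0.175 FPKM) on the opposite strand, and strand handling is not given.

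**Figure D3:**
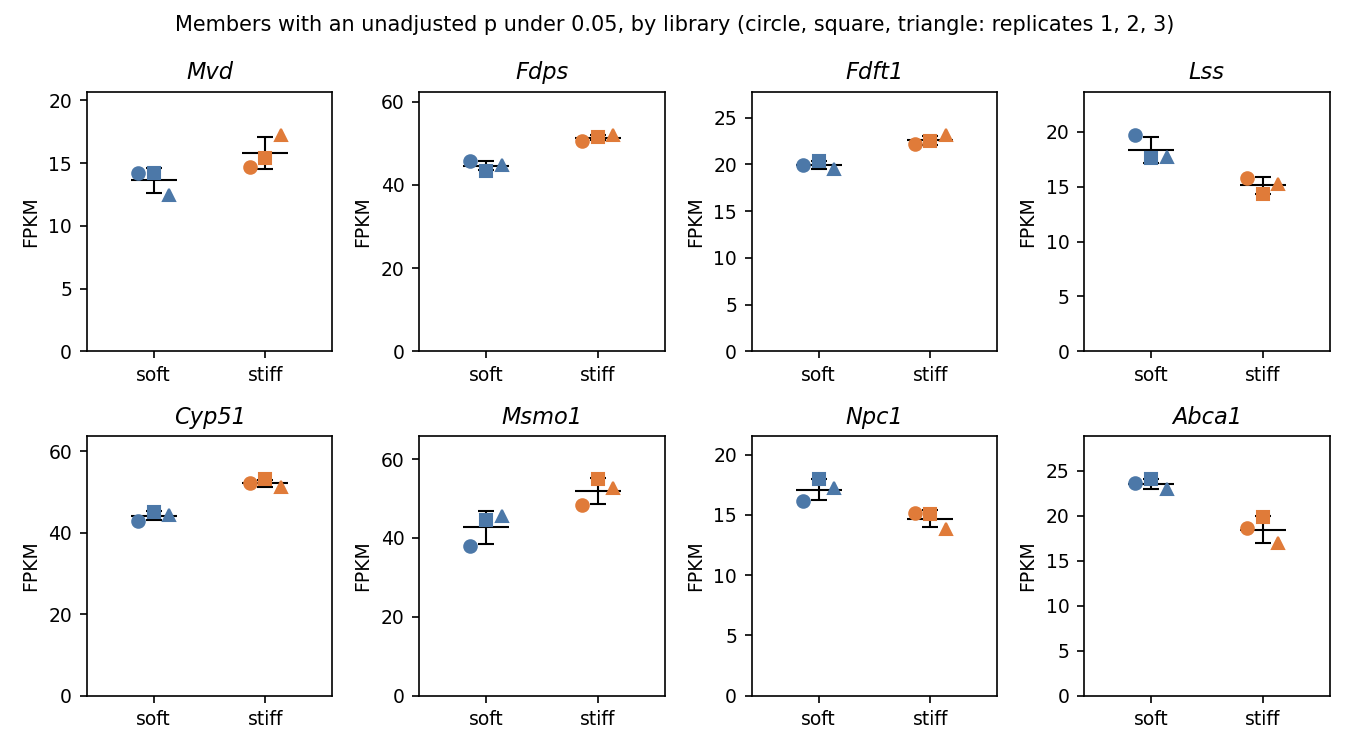
FPKM (y axes, from 0) of the 8 members with an unadjusted p under 0.05, by gel (blue soft, orange stiff); symbols are the 3 replicates, and bars the mean ± SD. In each panel the 3 stiff libraries lie on one side of the 3 soft ones, above them for Mvd, Fdps, Fdft1, Cyp51 and Msmo1 and below them for Lss, Npc1 and Abca1.

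The 5 genes that regulate the pathway had fold changes below 0 with a median of -0.06 and no call. Srebf2, whose product drives the synthesis enzymes, was at 40.9, 36.5 and 37.0 FPKM in soft and 38.9, 36.5 and 36.9 FPKM in stiff gel. Srebf1, better known for fatty acid genes, was at 34.7, 29.4 and 30.2 in soft and 29.9, 28.2 and 29.1 FPKM in stiff gel. Soft replicate 1 was the highest library for both, and the remaining values of the 2 gels were mixed for Srebf2. Its log2 fold change was -0.02 (95% interval -0.17 to 0.12), and that of Srebf1 was -0.11 (-0.28 to 0.07, adjusted p = 0.539), or -0.04 without soft replicate 1. Srebf2 exceeded Srebf1 in every library, by 1.18 to 1.24 times in soft and 1.27 to 1.30 times in stiff gel. Srebf1 shares 588 bases with Rai1 on the opposite strand and strand handling is not given, so part of its value is uncertain.

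Insig1, itself a classic target of SREBP, was at 59.8, 59.9 and 59.8 FPKM in soft and 54.4, 59.0 and 56.7 FPKM in stiff gel. The stiff libraries all lay lower, the nearest by less than 1 FPKM (log2 fold change -0.08, 95% interval -0.20 to 0.04, adjusted p = 0.522). It was thus on the other side of 0 from most enzymes. Insig2, which is not driven by SREBP in the same way, was at 20.3, 20.4 and 19.8 in soft and 21.4, 20.4 and 17.6 FPKM in stiff gel, with overlap. Insig1 was 2.94 to 3.02 times as abundant as Insig2 in soft and 2.54 to 3.22 times in stiff gel. Scap was at 37.8 ± 4.06 and 36.1 ± 3.05 FPKM, with soft replicate 1 highest.

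Sterol that arrives with lipoproteins is handed on by NPC2 to the membrane protein NPC1. Npc1 was at 16.2, 17.9 and 17.2 FPKM in soft and 15.1, 15.1 and 13.9 FPKM in stiff gel. The groups were separate (ratio 0.859, log2 fold change -0.21, SE 0.0675, adjusted p = 0.216), but 406 bases are shared with Rmc1 on the opposite strand. Npc2 was at 397.8, 377.3 and 378.3 FPKM in soft and 357.0, 350.4 and 369.3 FPKM in stiff gel, also without overlap (ratio 0.934, adjusted p = 0.372). Stard4, a cytosolic sterol carrier, was at 3.58 ± 0.584 and 3.99 ± 0.501 FPKM and was the single one of these 11 genes above 0.

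Abca1 loads cholesterol onto apolipoproteins outside the cell. It was at 23.6, 24.0 and 23.0 FPKM in soft gel and at 18.6, 19.9 and 16.9 FPKM in stiff gel. The soft libraries were within about 1 FPKM of each other and all above the stiff ones. The stiff mean was 0.784 times the soft one (log2 fold change -0.34, SE 0.0703, 95% interval -0.50 to -0.17, adjusted p = 0.0789). The adjusted p was 0.0209 with voom and 0.0237 with array weights, and reached 0.217 over the 20 alternatives, in which the log2 fold change ran from -0.39 to -0.25. The value nearest 0 came from removing the trend with gene length; Abca1, at 10339 bases, has the longest gene model among the members. In the table's coordinates, whose build it does not name, the gene (ENSRNOG00000018126) lies on chromosome 5 from 69857771 to 69983015. Abcg1, the exporter to lipoprotein particles, was at 3.32, 2.65 and 3.77 in soft and 2.73, 2.64 and 3.04 FPKM in stiff gel. Its libraries overlapped and held between 158 and 239 reads (log2 fold change -0.15, 95% interval -0.44 to 0.13). Soat1, which esterifies cholesterol for storage, was at 40.9 ± 1.40 and 38.2 ± 2.49 FPKM, with overlap. Macrophages are rich in these exporters, and the leukocyte and macrophage markers given above summed lower in stiff gel, without overlap; their part in the values of Abca1, Npc1 and Npc2 was not tested.

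Libraries differed in ways that cut across the gels. Soft replicate 1 was the lowest of the 6 for 7 of the 18 enzymes, among them Hmgcs1, Idi1, Sqle, Cyp51, Msmo1 and Sc5d, and the highest for 3 of them, among them Mvk and Lss. Over all tested genes it was lowest for 25.9% and highest for 25.4%. Stiff replicate 3 was the lowest for none of the enzymes and the highest for 5, and stiff replicate 2 the highest for 6. Among the other 11 members stiff replicates 2 and 3 were lowest for 5 and 4 genes. Without soft replicate 1 the enzymes had 14 of 18 above 0 with a median of 0.12.

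**Figure D4:**
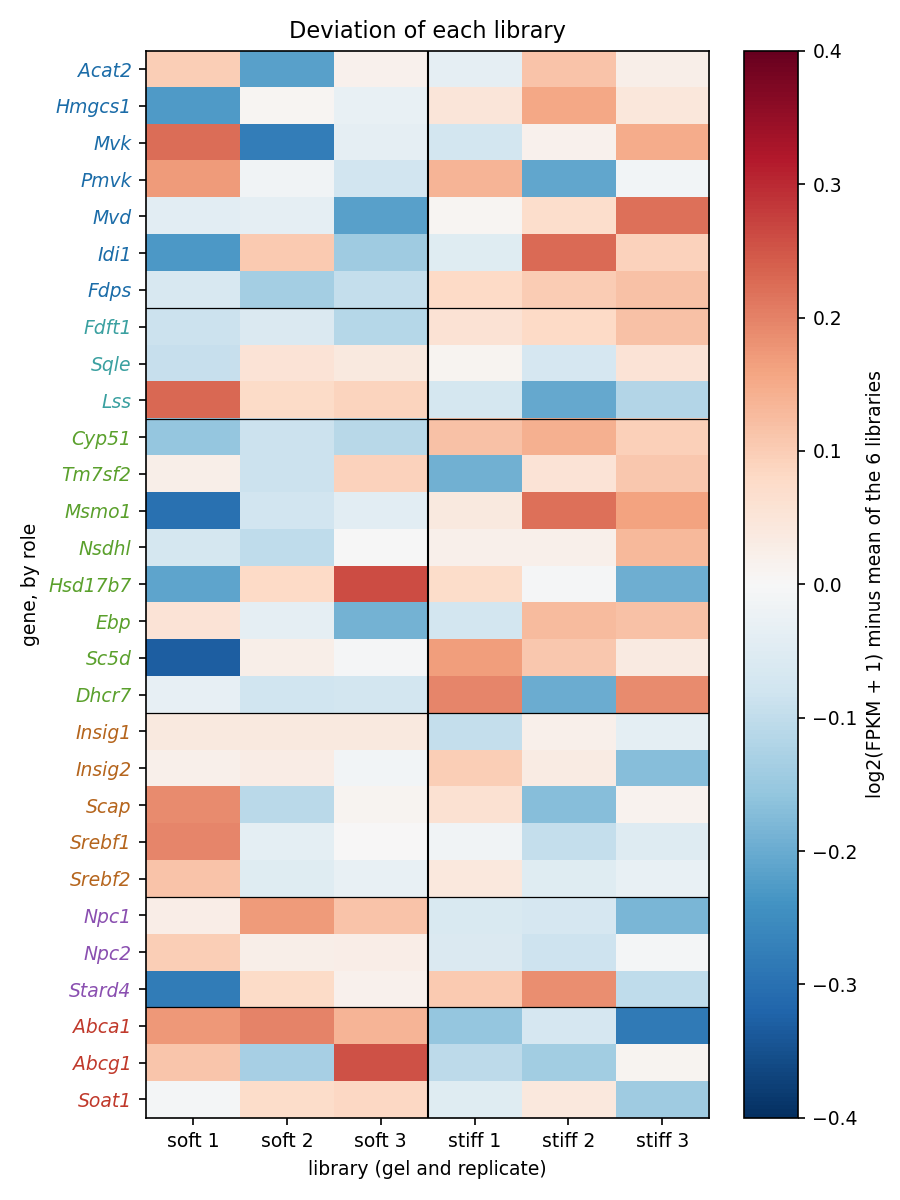
Each library's log2(FPKM + 1) minus the mean of the 6 libraries (colour scale) for 29 genes (rows, by role) in 6 libraries (columns). Msmo1, Sc5d and Hmgcs1 are lowest in soft replicate 1, Fdps, Fdft1 and Cyp51 split by gel, and Abca1 is the reverse of these.

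Other genes of sterol and lipid metabolism were read from lists of 76 genes, of which 71 were in the table and 65 were tested. None passed the test (limma 0 of 65, voom 0, 10 at an unadjusted p under 0.05, which is 15.4% beside 15.4% of all tested genes), and their median log2 fold change was 0.00. With array weights 3 passed, Fads2 higher (adjusted p = 0.0284), and Mylip (0.0438) and Msr1 (0.0439) lower in stiff gel. That setting called 430 genes higher and 255 lower of all 12713 tested. Fatty acid genes under SREBP1 had 8 of 10 fold changes above 0 with a median of 0.12. Fads2, a desaturase for polyunsaturated fatty acids, was at 17.0 ± 1.52 and 22.7 ± 1.72 FPKM, a log2 fold change of 0.40 with an adjusted p of 0.0880 (here and below soft gel is given first, as mean ± SD, n = 3). Acss2, which makes acetyl-CoA from acetate, was at 9.37 ± 0.476 and 11.0 ± 0.837 FPKM (adjusted p = 0.254). Neither passed, though the groups did not overlap for either gene, as for 22.6% of all tested genes. Of 4 tested adipocyte markers none was called, 3 lay below 0 and 1, the lipase gene Lpl, above it (59.9 ± 6.24 and 73.4 ± 4.76 FPKM), with a median of -0.12. With Lpl the most abundant, the 6 listed genes summed to between 96.6 and 104.9 FPKM in soft and between 107.1 and 114.3 FPKM in stiff gel; their part in these values was not tested.

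Among 16 tested genes of lysosomal and intracellular sterol handling, 6 lay above 0 (median -0.03), with 3 at equal FPKM sums. Tmem97, a sterol-responsive membrane protein that binds NPC1, was at 22.1 ± 1.88 and 27.9 ± 0.664 FPKM, a log2 fold change of 0.32 with an adjusted p of 0.0911, and the oxysterol-binding Osbpl1a at 8.03 ± 0.163 and 7.09 ± 0.597. The LXR, oxysterol and efflux list had 6 of 13 above 0 with a median of -0.00. Mylip, an LXR target that marks lipoprotein receptors for degradation, was at 21.2 ± 0.501 and 18.5 ± 1.04 FPKM (adjusted p = 0.213). Rxra, the partner of LXR, was at 33.2 ± 1.83 and 29.9 ± 0.864 FPKM (adjusted p = 0.315). These were the 2 of the 13 genes whose groups did not overlap, both lower in stiff gel. Among all tested genes 22.6% did not overlap, in either direction.

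Lipoprotein receptors had 1 of 7 above 0 with a median of -0.04. Lrp1, an endocytic receptor, was at 616.7 ± 66.7 and 496.1 ± 41.9 FPKM (adjusted p = 0.178), and Msr1, a scavenger receptor of macrophages, at 6.72 ± 0.483 and 4.95 ± 0.688 FPKM (adjusted p = 0.148). Isoprenoid branch genes had 6 of 8 above 0 (median 0.08). The prenyltransferase subunit Fnta was at 36.5 ± 0.898 and 40.0 ± 0.850 FPKM (adjusted p = 0.298). Pdss1, for the tail of coenzyme Q, was at 3.04 ± 0.607 and 3.43 ± 0.221 FPKM (adjusted p = 0.642). The Pdss1 libraries overlapped between gels and held between 58 and 87 reads. In the list of SREBP processing and reductase turnover 7 of 11 lay above 0 (median 0.03), but 5 at equal FPKM sums, where the median was -0.02. There Paqr3, which tethers SCAP at the Golgi, was at 5.58 ± 0.186 and 4.99 ± 0.182 FPKM.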

How the data were processed

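PolyA RNA was profiled in 6 libraries, 3 per gel, grouped by sample title. The authors deposited FPKM values per gene for 33589 rows. Among the tools, Bowtie 0.12.9, Cufflinks 2.1.1 and HTSeq are listed per the submitters' processing notes. The same notes list mm10 and GRCm38, which are mouse builds, although the identifiers are rat Ensembl ones and the table states no build. No source used here states how strand and multiply mapped reads were treated. FPKM times gene length came out as whole multiples of 1 step per library (100% of values within 0.001), which gave the reads. Values were taken as log2(FPKM + 1) and genes averaging under 1 FPKM left out. The gel was the single term of a limma fit (limma 3.58.1, R 4.3.3) with a variance trend; its two-sided p-values were adjusted by Benjamini and Hochberg's method at 0.05, and the fit was tested on simulated data. The members, roles, lists and alternatives were chosen with earlier results of these data known. Members called, with an unadjusted p under 0.05 or with separate groups, and Srebf1, Srebf2, Insig1, Insig2, Abca1 and Abcg1, were to be given by library; in each further list, called genes or the 2 with the smallest p were named, except 1 gene that is not reported here. Promoters came from RefSeq (GRCr8). No replicate pair agreed within sampling noise (chi-square per degree of freedom 3.80 or more). Soft replicate 1 differed most, at 18.2 and 14.5 against soft replicates 2 and 3, where the other pairs reached at most 9.20. The number of libraries and reads limits precision; intervals cover the spread between these libraries.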

Additional observations from a re-analysis of the deposited data

How the results depend on the processing

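Of 20 alternatives, 17 called no member; 1 of these, a mean of at least 5 FPKM, tested 26 of the 29. Array weights gave 2 higher (Cyp51, Fdps) and 1 lower (Abca1), voom 1 lower (Abca1), and an adjusted p threshold of 0.10 gave 1 higher (Cyp51) and 1 lower (Abca1). The members' median moved to 0.0293 at a mean of at least 5 FPKM, -0.0492 at equal FPKM sums and 0.0375 with array weights, and ran from -0.0246 to 0.056 with 1 library left out. With all libraries kept, 3 members near 0 changed sign: Pmvk (0.0675), Insig2 (0.0066) and Srebf2 (0.0253) with array weights, and Srebf2 (0.0055) with the length trend removed. Over all genes the test called 128 higher and 54 lower, which became 71 and 21 with no level filter, 85 and 27 without the variance trend, 430 and 255 with array weights, 242 and 140 at a threshold of 0.10, and 127 lower with voom, and equal FPKM sums shifted the split to 88 and 68 and quantile normalization to 103 and 68. The replicate block gave 78 and 27 and no member; the deviations of same-numbered libraries from their group means had correlations of 0.055, 0.116 and -0.078, so the numbers were not taken to pair samples. With 1 library left out, between 19 and 116 genes were higher and between 7 and 43 lower, and 0 members were called in either direction; 9 members changed sign in at least 1 of these fits: Pmvk (-0.1349 to 0.0365), Scap (-0.1321 to 0.0163), Srebf2 (-0.0537 to 0.0269), Acat2 (-0.0246 to 0.1345), Mvk (-0.0629 to 0.1859), Sqle (-0.0473 to 0.0316), Tm7sf2 (-0.0791 to 0.0711), Hsd17b7 (-0.2123 to 0.0242), Insig2 (-0.0831 to 0.0512). The cause of these shifts was not tested. Depth limits the low members most, as given for Stard4.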
